A study of Mus musculus with 5 samples.

Results

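Neurotrophins are secreted growth factors of neurons, and the genes described here are those of 2 neurotrophins, of their tyrosine kinase receptors and of the co-receptors that bind their mature or precursor forms. The members were chosen by gene symbol, namely Bdnf, Ntf3, Ntrk2, Ntrk3, Ngfr and Sort1, and all 6 were found once each among the 55385 genes with deposited counts. Total RNA came from hippocampi of male C57/bl6 mice that were 3 months old, either untreated (1 library) or given kainic acid at 20 mg/kg by intraperitoneal injection and sacrificed 1 h (1 library), 4 h (2 libraries, replicates 1 and 2) or 8 h (1 library) after seizures began. Kainic acid activates glutamate receptors and provokes seizures that strongly excite hippocampal neurons, so the time points follow RNA levels after strong neuronal activity. The control is labelled as untreated and not as vehicle-injected, and the sources used here do not say whether a library came from 1 animal or whether the 4 h replicates were separate animals. P-values therefore measure only the spread between these libraries, which may be technical.
Brain-derived neurotrophic factor (BDNF, from Bdnf) binds the receptor TrkB (from Ntrk2), and neurotrophin-3 (from Ntf3) binds chiefly TrkC (from Ntrk3). The p75 neurotrophin receptor (from Ngfr) binds all neurotrophins, and sortilin (from Sort1) joins p75 in binding precursor neurotrophins and also sorts BDNF inside the cell. In the hippocampus BDNF is a classic product of neuronal activity, and its gene has several alternative first exons, each with a promoter of its own.
Between 16612225 (8 h) and 19109204 (4 h replicate 2) counts lay on genes in each library. Levels are given as normalized CPM, read counts relative to the library total after TMM scaling (CPM), with exact Poisson 95% intervals, and ratios of single libraries carry exact binomial 95% intervals. Both kinds of interval cover counting error only. Replicate 1 after 4 h stood apart in markers of tissue next to the hippocampus: its choroid plexus markers summed to 29.2 CPM, against 3995 in the control and 4267 in replicate 2, and its thalamic neuron markers to 466, against 119 and 218. Values after 4 h are therefore given for each replicate. All 6 members passed the filter on low counts, as did 19768 genes in all. The quasi-likelihood test of edgeR set each time point against the control, in a fit whose spread came from the 4 h pair alone. P-values were adjusted over these genes after Benjamini and Hochberg, and a gene was called at an adjusted p under 0.05. No member was called after 1, 4 or 8 h. The test called 0 genes (0%) after 1 h, 1 gene (0.00506%) after 4 h and 0 genes (0%) after 8 h, the 1 gene being ETV3L, which was singled out after its values were seen. At an unadjusted p under 0.05 stood 1 member after 1 h (Bdnf), 3 after 4 h (Bdnf, Ntf3 and Ntrk2) and 2 after 8 h (Ntf3 and Ntrk3), against 478 (2.42%), 2291 (11.6%) and 892 (4.51%) of all genes tested. With DESeq2, 0, 2 and 0 members were called after 1, 4 and 8 h, beside 56 of 12486, 238 of 14019 and 33 of 14019 genes to which it gave an adjusted p, and with limma-voom 0 genes were called at any time.
In bulk tissue, fewer cells of a type and less RNA per cell cannot be told apart. By size alone, Bdnf was at least 2-fold above the control after 1 h, in both 4 h libraries and after 8 h, which held for 4.95%, 4.54% and 6.46% of all genes tested. Ntf3 was at least 2-fold below the control in both 4 h libraries and after 8 h, as were 1.48% and 3.18% of all genes, while no member was that far below after 1 h, where 3.39% of genes were. The other members stayed within 2-fold after 1 h and 8 h and in at least 1 library after 4 h. With 4 h replicate 2 left out, the rule rested on replicate 1 alone, and Ntrk2 also passed 2-fold, which made 3 members in place of 2. The 4 h shares given here hold for both libraries and not for this looser rule.

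**Figure D1:**
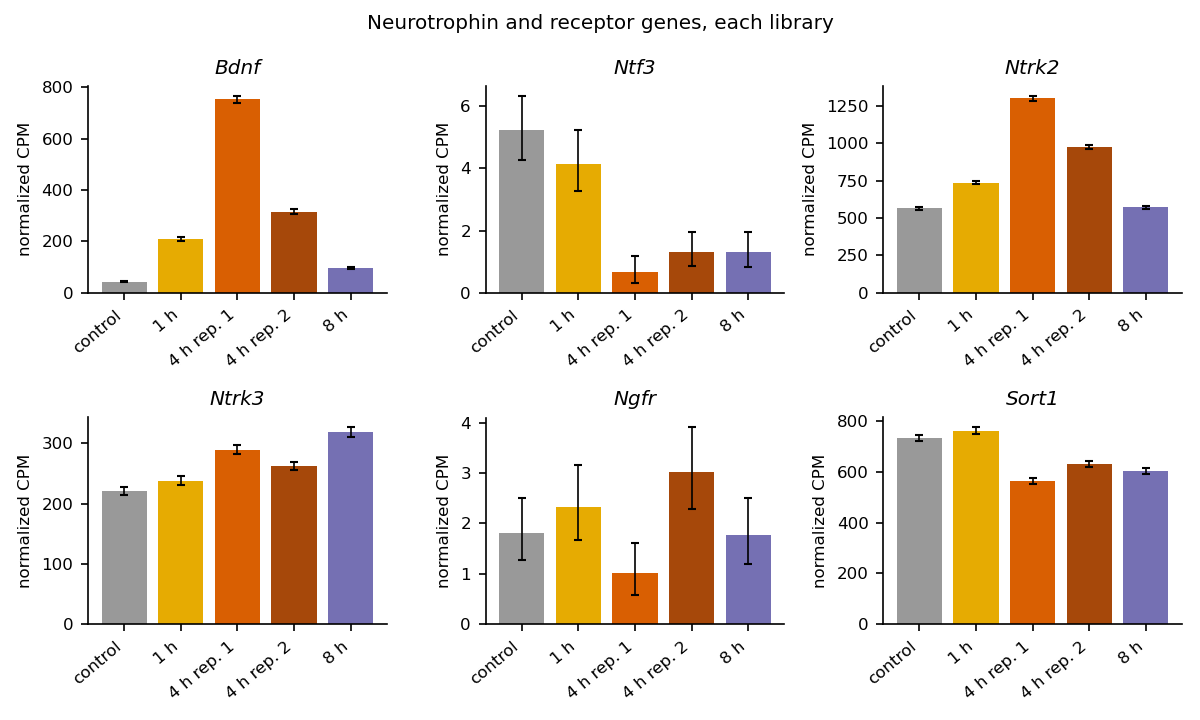
Normalized CPM of the 6 members (linear vertical axes from 0) in the control, 1 h, 4 h (replicates 1 and 2) and 8 h libraries. Bars are single libraries and error bars exact Poisson 95% intervals. Bdnf peaks at 754 CPM in 4 h replicate 1, while Ntf3 is highest in the control at 5.23 CPM.

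Bdnf (ENSMUSG00000048482.14) maps to the plus strand of chromosome 2 (GRCm38), between positions 109674700 and 109727007, with 11 annotated transcripts. Promoter sequences (250 bases before to 50 after a start site) come from RefSeq on GRCm38.p6, whose table held 11 promoters for 4 of the 6 members, namely 7 for Bdnf, 2 for Ntf3 and 1 each for Ngfr and Ntrk2. The Bdnf promoter chr2:109692186-109692485 (plus strand) is shown because Bdnf had the widest range of levels among the members and because this is the only one of the 11 that holds the letters TGACG on either strand. TGACG is the core of the cAMP response element TGACGTCA, the motif bound by the activity-regulated factor CREB.
Bdnf promoter chr2:109692186-109692485: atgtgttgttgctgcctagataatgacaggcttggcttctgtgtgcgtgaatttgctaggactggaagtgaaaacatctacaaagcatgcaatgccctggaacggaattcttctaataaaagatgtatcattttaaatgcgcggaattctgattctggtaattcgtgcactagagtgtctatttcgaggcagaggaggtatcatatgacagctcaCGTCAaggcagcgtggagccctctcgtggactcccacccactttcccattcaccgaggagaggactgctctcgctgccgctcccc
The capitals mark TGACG, which lies on the other strand and appears here as its reverse complement CGTCA, beginning at position -35 from the start site. Of 32851 mouse promoters of the same length, 20.8% hold TGACG on either strand and 1.79% hold the full TGACGTCA, in which TGACG is contained; no promoter of the members holds the full motif. A match is a run of letters and not a measured binding site, and the counts join all first exons, so they do not tell which Bdnf promoter was used.
Bdnf had 868 counts in the control, 3663 after 1 h, 12693 and 5981 in replicates 1 and 2 after 4 h, and 1695 after 8 h. In normalized CPM these were 43.6 (40.8 to 46.6) in the control, 208 (202 to 215) after 1 h, 754 (741 to 767) and 316 (308 to 324) after 4 h and 96.7 (92.1 to 101) after 8 h. All 4 kainic acid libraries lay above the control, both 4 h libraries lay above the others, and the 8 h library was the closest to the control. The ratio to the control was 4.78 (4.44 to 5.15) after 1 h, 17.3 (16.1 to 18.5) and 7.25 (6.75 to 7.80) after 4 h, and 2.22 (2.04 to 2.41) after 8 h. Replicate 1 had 2.38 times (2.31 to 2.46) the level of replicate 2, a gap exceeded by 7.57% of all genes tested and smaller than the distance of either replicate from the control. The log2 fold change was 2.25 (SE 0.59) after 1 h, 3.61 (SE 0.59) after 4 h and 1.15 (SE 0.57) after 8 h, with adjusted p = 1, 0.245 and 1.00 by edgeR's quasi-likelihood test. After 4 h the call depended on the setting: 5 of 10 alternatives (library size alone, DESeq2, an assumed coefficient of variation of 0.2 or of 0.4, and no filter) called Bdnf, and the adjusted p ranged from 5.84e-51 to 0.391 over edgeR, DESeq2 and limma. Bdnf was also called after 1 h by 2 of 10 alternatives (without a filter, and with a coefficient of variation set at 0.2) and after 8 h by 1 (without a filter), where the adjusted p of edgeR, DESeq2 and limma ranged from 1.24e-19 to 1 and from 0.000183 to 1. The lowest adjusted p at each time came from the fit without a filter. In that fit the F statistic was below 0 for 3330, 1581 and 2932 genes after 1, 4 and 8 h.
The antisense gene Gm45346 covers 14.4% of the exon length of Bdnf on the opposite strand. It had 8 counts in the control, 10 after 1 h, 23 and 6 after 4 h and 3 after 8 h. The library kit keeps the strand, but the strand setting of the counting is not given in the sources used here. Reads from the shared stretch may therefore have been counted for either gene or, as ambiguous, for neither. The counts of Gm45346 were far below those of Bdnf in every library, which does not tell how many reads were set aside as ambiguous.

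Ntf3 (ENSMUSG00000049107.13) maps to the minus strand of chromosome 6, between positions 126101412 and 126166910, with 3 annotated transcripts. Its promoter chr6:126166695-126166994 (minus strand) is shown because Ntf3 stood at the opposite side of the control from Bdnf after 4 h and 8 h, and because it alone among the 11 promoters holds the E-box CACGTG.
Ntf3 promoter chr6:126166695-126166994: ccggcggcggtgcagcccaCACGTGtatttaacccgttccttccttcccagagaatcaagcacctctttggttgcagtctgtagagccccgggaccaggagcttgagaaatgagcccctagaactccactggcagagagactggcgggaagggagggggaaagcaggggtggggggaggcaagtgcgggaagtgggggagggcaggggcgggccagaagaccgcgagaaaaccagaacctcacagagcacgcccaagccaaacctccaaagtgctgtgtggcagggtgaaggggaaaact
The capitals mark CACGTG, a motif bound by basic helix-loop-helix factors, which reads the same on both strands and begins at position -231. It is found in 7.15% of the 32851 promoters, and neither Ntf3 promoter holds TGACG.
Ntf3 had 104 counts in the control, 73 after 1 h, 11 and 25 in replicates 1 and 2 after 4 h, and 23 after 8 h. The levels were 5.23 (4.27 to 6.33) CPM in the control, 4.15 (3.26 to 5.22) after 1 h, 0.653 (0.326 to 1.17) and 1.32 (0.856 to 1.95) after 4 h, and 1.31 (0.832 to 1.97) after 8 h. The control and the 1 h library were high and the 4 h and 8 h libraries low, without overlap of their intervals. The ratio to the control was 0.795 (0.581 to 1.08) after 1 h, an interval that included 1, so that a difference was not detectable at this depth. The level was 12.5% and 25.3% of the control after 4 h and 25.1% after 8 h. The replicates after 4 h differed 2.02-fold with a counting interval from 0.961 to 4.56, so they were not distinguishable at these counts. The log2 fold change was -0.32 (SE 0.61), -2.27 (SE 0.54) and -1.91 (SE 0.66) after 1, 4 and 8 h, with adjusted p = 1, 0.288 and 1.00 by edgeR's quasi-likelihood test. Without replicate 2 the value after 4 h was -2.80, and without replicate 1 it was -1.90. With an assumed coefficient of variation of 0.2 Ntf3 was called after 4 h and 8 h, and without a filter it was called after 4 h; over 10 alternatives the adjusted p (edgeR, DESeq2 or limma) ranged from 5.62e-06 to 0.369 after 4 h and from 0.0196 to 1 after 8 h.

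**Figure D2:**
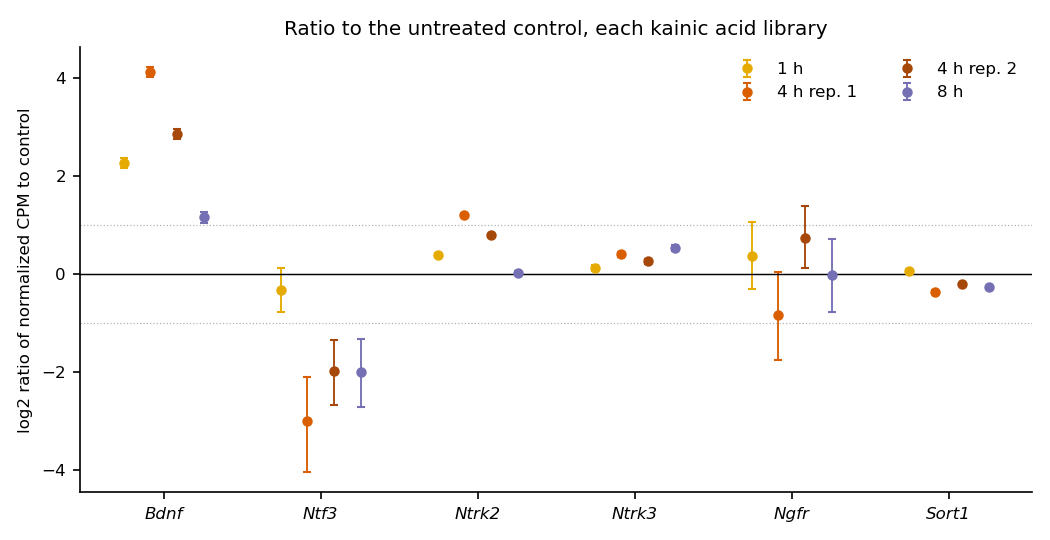
Log2 ratio of normalized CPM to the control for each member (horizontal axis) in the 1 h, 4 h and 8 h libraries, with exact binomial 95% intervals; dotted lines mark 2-fold. Bdnf lies above the upper line in all 4 libraries and Ntf3 below the lower line in 3 of 4, while Ntrk2 passes 2-fold only in 4 h replicate 1.

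Counts of Bdnf and Ntf3 in the same library give a ratio of the ligands that needs no scaling between libraries. Bdnf counts were 8.35 times (6.80 to 10.3) those of Ntf3 in the control and 50.2 times (39.8 to 64.2) after 1 h. After 4 h the ratio was 1154 (645 to 2312) in replicate 1 and 239 (162 to 370) in replicate 2, and after 8 h it was 73.7 (48.9 to 117). The control had the lowest ratio of the 5 libraries, and its interval did not overlap that of any other. Per kilobase of exon, the Bdnf level was 2.30 times that of Ntf3 in the control, 318 and 66.0 times after 4 h and 20.3 times after 8 h.

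**Figure D3:**
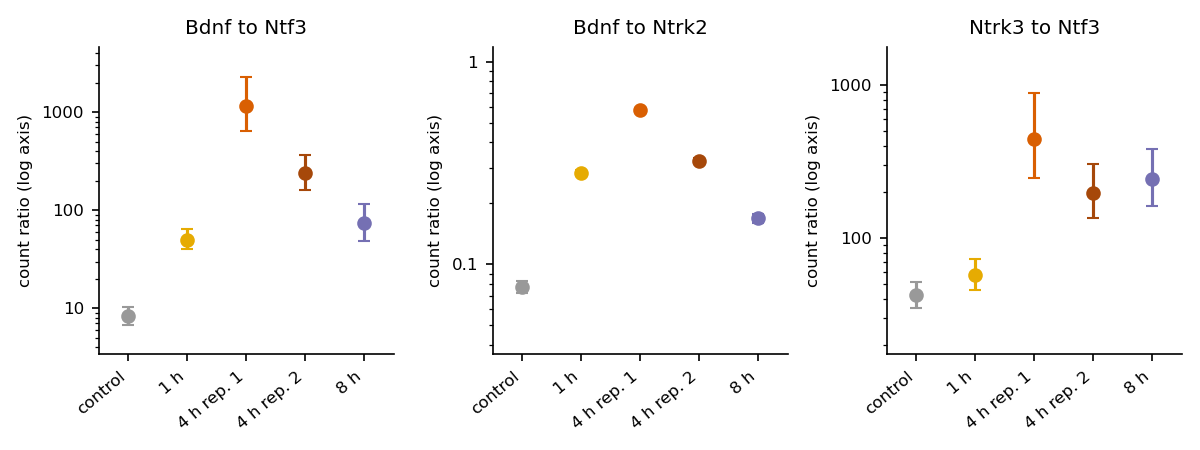
Ratios of counts within each library (log axes) of Bdnf to Ntf3, of Bdnf to Ntrk2 and of Ntrk3 to Ntf3, with exact binomial 95% intervals. All 3 ratios are lowest in the control, and the first reaches 1154 in 4 h replicate 1.

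Ntrk2 (ENSMUSG00000055254.15, chromosome 13 from 58806569 to 59133970, plus strand, 10 annotated transcripts) encodes TrkB, the BDNF receptor, in a full-length form with the kinase and in truncated forms without it, and the counts join all of them. It had 11256 counts in the control, 12970 after 1 h, 21906 and 18449 after 4 h and 10017 after 8 h. The levels were 566 (555 to 576) CPM in the control, 738 (725 to 751) after 1 h, 1301 (1284 to 1318) and 976 (962 to 990) after 4 h, and 571 (560 to 583) after 8 h. Both 4 h libraries were the highest, the 1 h library lay between, and the 8 h library could not be told from the control, with a ratio of 1.01 (0.983 to 1.04). The ratio to the control was 1.30 (1.27 to 1.34) after 1 h and 2.30 (2.25 to 2.35) and 1.73 (1.69 to 1.77) after 4 h. Replicate 1 exceeded replicate 2 by 1.33 times (1.31 to 1.36), less than either differed from the control. The log2 fold change was 0.38 (SE 0.26), 1.01 (SE 0.23) and 0.01 (SE 0.26) after 1, 4 and 8 h, with adjusted p = 1, 0.295 and 1.00 by edgeR's quasi-likelihood test. After 4 h Ntrk2 was called by DESeq2 and without a filter, and the adjusted p ranged from 1.87e-05 to 1.00 over 10 alternatives with edgeR, DESeq2 or limma. The lowest came from the fit without a filter, in which the F statistic was below 0 for 1581 genes after 4 h.
Ntrk3 (ENSMUSG00000059146.12, chromosome 7 from 78175959 to 78738012, minus strand, 20 annotated transcripts) encodes TrkC, the chief receptor of neurotrophin-3. It had 4383 counts in the control, 4186 after 1 h, 4875 and 4956 after 4 h and 5571 after 8 h, or 220 (214 to 227), 238 (231 to 245), 290 (281 to 298), 262 (255 to 269) and 318 (310 to 326) CPM. The control was the lowest and the 8 h library the highest, and no ratio exceeded 1.44, the value after 8 h. The log2 fold change was 0.11 (SE 0.19), 0.32 (SE 0.17) and 0.53 (SE 0.19) after 1, 4 and 8 h, with adjusted p = 1, 0.509 and 1.00 by edgeR's quasi-likelihood test. No alternative called it.
For the pair of BDNF and TrkB, the counts of Bdnf were 0.0771 (0.0719 to 0.0826) of those of Ntrk2 in the control, 0.282 (0.272 to 0.293) after 1 h, 0.579 (0.567 to 0.592) and 0.324 (0.315 to 0.334) after 4 h and 0.169 (0.161 to 0.178) after 8 h. This ligand to receptor ratio was highest in 4 h replicate 1 and lowest in the control. For neurotrophin-3 and TrkC the course was opposite for the ligand, with 42.1 (34.7 to 51.7) counts of Ntrk3 for each count of Ntf3 in the control, 57.3 (45.5 to 73.3) after 1 h, 443 (247 to 888) and 198 (134 to 307) after 4 h, and 242 (161 to 382) after 8 h. The ratio of Ntrk2 to Ntrk3 counts was 2.57 (2.48 to 2.66) in the control, 3.10 (2.99 to 3.21) after 1 h, 4.49 (4.36 to 4.64) and 3.72 (3.61 to 3.84) after 4 h and 1.80 (1.74 to 1.86) after 8 h. It was thus above the control after 1 h and 4 h and below it after 8 h.

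Ngfr (ENSMUSG00000000120.6, chromosome 11 from 95568818 to 95587735, minus strand, 1 annotated transcript) encodes the p75 receptor. It had 36 counts in the control, 41 after 1 h, 17 and 57 in replicates 1 and 2 after 4 h, and 31 after 8 h. The levels were 1.81 (1.27 to 2.504), 2.33 (1.67 to 3.16), 1.01 (0.588 to 1.62), 3.01 (2.28 to 3.91) and 1.77 (1.20 to 2.51) CPM in the same order. The lowest and the highest value of the 5 libraries were the replicates after 4 h, which lay on opposite sides of the control. Replicate 2 had 2.99 times (1.71 to 5.47) the level of replicate 1, a gap exceeded by 4.45% of genes, so the difference from the control was smaller than that between the replicates. The log2 fold change was 0.35 (SE 0.84), 0.15 (SE 0.73) and -0.03 (SE 0.85), with adjusted p = 1, 0.950 and 1.00 by edgeR's quasi-likelihood test. After 4 h it was -0.78 without replicate 2 and 0.70 without replicate 1, and its sign also turned under 1 of 9 alternatives with a test.
Sort1 (ENSMUSG00000068747.14, chromosome 3 from 108284082 to 108361511, plus strand, 3 annotated transcripts) encodes sortilin. It had 14547 counts in the control, 13385 after 1 h, 9497 and 11916 after 4 h and 10580 after 8 h, or 731 (719 to 743), 762 (749 to 775), 564 (553 to 575), 630 (619 to 642) and 604 (592 to 615) CPM. The control and the 1 h library were high and the 4 h and 8 h libraries low. The level was 77.2% and 86.2% of the control after 4 h and 82.6% after 8 h. After 1 h the ratio was 1.04 (1.02 to 1.07), and it was 0.990 when scaled by library size alone. The log2 fold change was 0.06 (SE 0.19), -0.29 (SE 0.17) and -0.28 (SE 0.19), with adjusted p = 1, 0.551 and 1.00 by edgeR's quasi-likelihood test, and no alternative called it. The antisense gene Gm12523, which covers 4.47% of the Sort1 exon length, had between 0 and 3 counts.

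The order of the genes by level is given per kilobase of the joined exons of a gene, while the ratios of counts between 2 genes take no account of length and serve to compare libraries. The value per kilobase understates a gene whose long exons are seldom used. In the control the order was Sort1 at 96.6 CPM per kilobase, Ntrk2 at 29.3 (28.8 to 29.9), Ntrk3 at 7.30 (7.08 to 7.52), Bdnf at 7.01 (6.56 to 7.50), Ntf3 at 3.05 (2.49 to 3.69) and Ngfr at 0.525 (0.368 to 0.727). The intervals of Ntrk3 and Bdnf overlapped, so these neighbours did not differ beyond counting error. After 1 h Bdnf stood at 33.5 CPM per kilobase, below Ntrk2 at 38.2 and above Ntrk3 at 7.89. After 4 h Bdnf was the highest of the 6 in replicate 1 at 121 (119 to 123), above Sort1 at 74.5 (73.0 to 76.0) and Ntrk2 at 67.4 (66.5 to 68.3). In replicate 2 Sort1 was the highest at 83.3 (81.8 to 84.8), and Bdnf at 50.9 (49.6 to 52.2) and Ntrk2 at 50.6 (49.8 to 51.3) did not differ beyond counting error. After 8 h the order was Sort1, Ntrk2, Bdnf, Ntrk3, Ntf3 and Ngfr, with Bdnf at 15.6 (14.8 to 16.3). Ntf3 and Ngfr had overlapping intervals in both 4 h libraries and after 8 h.

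Beside the fold counts of the lists below, 4.95%, 4.54% and 6.46% of all genes tested were at least 2-fold above the control after 1 h, in both 4 h libraries and after 8 h, and 3.39%, 1.48% and 3.18% at least 2-fold below. The rest of the neurotrophin family was described from a list of 10 genes, of which 9 passed the filter. None was called, and their median log2 fold change was 0.03 after 1 h, 0.15 after 4 h and 0.37 after 8 h, beside -0.01, 0.01 and 0.01 for all genes tested. Ntf5, which encodes neurotrophin-4, had 4 counts in the control, 3 after 1 h, 2 and 11 after 4 h and 18 after 8 h. The ratio after 8 h was 5.11 with a wide interval from 1.68 to 20.8.
Sorcs3, a sortilin relative of neurons, had 1261 counts in the control, 1137 after 1 h, 3111 and 2644 after 4 h and 3632 after 8 h. It was level with the control after 1 h (ratio 1.02, 0.942 to 1.11), and it was higher after 4 h (2.92 and 2.21) and after 8 h (3.27, 3.07 to 3.49). Its log2 fold change was 0.03 (SE 0.25), 1.36 (SE 0.23) and 1.71 (SE 0.26), with adjusted p = 1, 0.255 and 0.756 by edgeR's quasi-likelihood test. Sort1 counts were 11.5 times (10.9 to 12.2) those of Sorcs3 in the control and 2.91 times (2.80 to 3.03) after 8 h. Of the other sortilin relatives, Sorcs1 had ratios between 1.22 and 1.34, Sorcs2 between 0.849 and 0.998, and Sorl1 between 1.04 and 1.46, with the highest Sorl1 level after 8 h. With library size alone, Sorl1 in 4 h replicate 1 had a ratio of 0.917. Nradd, a relative of the p75 receptor, had between 10 and 21 counts. Bex3 and Maged1, which encode proteins that bind p75, had ratios between 0.889 and 1.08 and between 0.896 and 1.11.

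Among 18 genes of proneurotrophin processing, 16 passed the filter and none was called. The median log2 fold change was 0.18 after 1 h, 0.55 after 4 h and 0.37 after 8 h, and at least 2-fold above the control were 3 genes after 1 h, 5 after 8 h and 5 in both 4 h libraries (among them Furin, Pcsk1, Timp1 and Scg2), with 1 below in both 4 h libraries and after 8 h (Mmp9). Pcsk1, a prohormone convertase, had ratios of 2.49 after 1 h, 10.1 and 2.95 after 4 h and 0.872 after 8 h. Scg2, a granin of secretory vesicles that is also in the list of genes that respond to neurotrophins, had ratios of 3.10, 9.54, 4.13 and 2.10 in the same order. Both were higher in replicate 1 than in replicate 2, as was Bdnf.
The 33 genes of Trk adaptors and signalling all passed the filter, none was called, and the median log2 fold change was 0.03, -0.01 and 0.03 after 1, 4 and 8 h. At least 2-fold above the control in both 4 h libraries were 2 of them, the adaptor Sh2b2 (ratios 2.89 and 3.23) and the kinase Mapk7 (2.18 and 2.08). Grb2, the adaptor between Trk receptors and Ras, had ratios of 1.80 and 1.83 after 4 h. No gene of this list was 2-fold from the control after 1 h or 8 h.
Of the 15 partners of the p75 receptor, all tested and none called, the median log2 fold change was -0.06, -0.13 and -0.06. Lingo1, which forms a receptor complex with p75 and the Nogo receptor, had 2413 counts in the control, 2295 after 1 h, 5133 and 6225 after 4 h and 3737 after 8 h. Its log2 fold change after 4 h was 1.39 (SE 0.17), with adjusted p = 0.242 by edgeR's quasi-likelihood test. Irak1 had ratios between 0.677 and 0.929, and Rtn4r, the Nogo receptor, had 0.625 and 0.958 after 4 h and 1.15 after 8 h.
Regulators of Bdnf transcription numbered 16, all tested and none called, with a median log2 fold change of -0.02, -0.004 and 0.05. Npas4, an activity-induced transcription factor, had 78 counts in the control, 12204 after 1 h, 2189 and 93 after 4 h and 90 after 8 h. It was 177 times the control after 1 h, and the 4 h replicates stood at 33.2 and 1.25 times the control. Srf was also at least 2-fold above the control after 1 h, and no regulator was that far away in both 4 h libraries or after 8 h. The repressor Rest had ratios of 1.97 and 1.75 after 4 h, and Crtc1, a coactivator of CREB, had 0.564 and 0.642.
The 16 genes known to respond to neurotrophins all passed the filter. None was called, and 12 were at least 2-fold above the control after 1 h, 9 in both 4 h libraries and 5 after 8 h, with 1 below after 8 h (Egr2), against shares above the control of 4.95%, 4.54% and 6.46% over all genes tested. The median log2 fold change was 2.48, 2.16 and 0.53 after 1, 4 and 8 h. Such genes are also known to respond to neuronal activity itself. The list was chosen with earlier results of these data known, so these counts are a description, and no excess over all genes was tested. Nptx2, a pentraxin that binds AMPA receptors, had ratios of 11.5 after 1 h, 41.7 and 23.2 after 4 h and 5.20 after 8 h, and its log2 fold change after 4 h was 5.01 (SE 0.46), with adjusted p = 0.234 by edgeR's quasi-likelihood test. Fos had 92.5 after 1 h, 48.1 and 6.52 after 4 h and 1.59 after 8 h, and Arc had 13.7, 17.6, 6.29 and 1.03. Fos was highest after 1 h, and Nptx2 and Arc, like Bdnf, were highest in 4 h replicate 1.
None of the 6 lists held a gene called by edgeR or limma-voom at any time. In the order family, processing, Trk signalling, p75 partners, regulators and responding genes, DESeq2 called 0, 1, 0, 0, 0 and 1 genes after 1 h, 1, 2, 0, 1, 0 and 2 after 4 h and 1, 0, 0, 0, 0 and 2 after 8 h, beside its 56 of 12486, 238 of 14019 and 33 of 14019 over all genes. With 9, 16, 33, 15, 16 and 16 genes tested, an unadjusted edgeR p under 0.05 was found for 0, 2, 0, 0, 3 and 12 after 1 h, 1, 6, 6, 1, 2 and 10 after 4 h and 2, 3, 1, 1, 0 and 4 after 8 h. The shares over all genes tested were 2.42%, 11.6% and 4.51%.

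**Figure D4:**
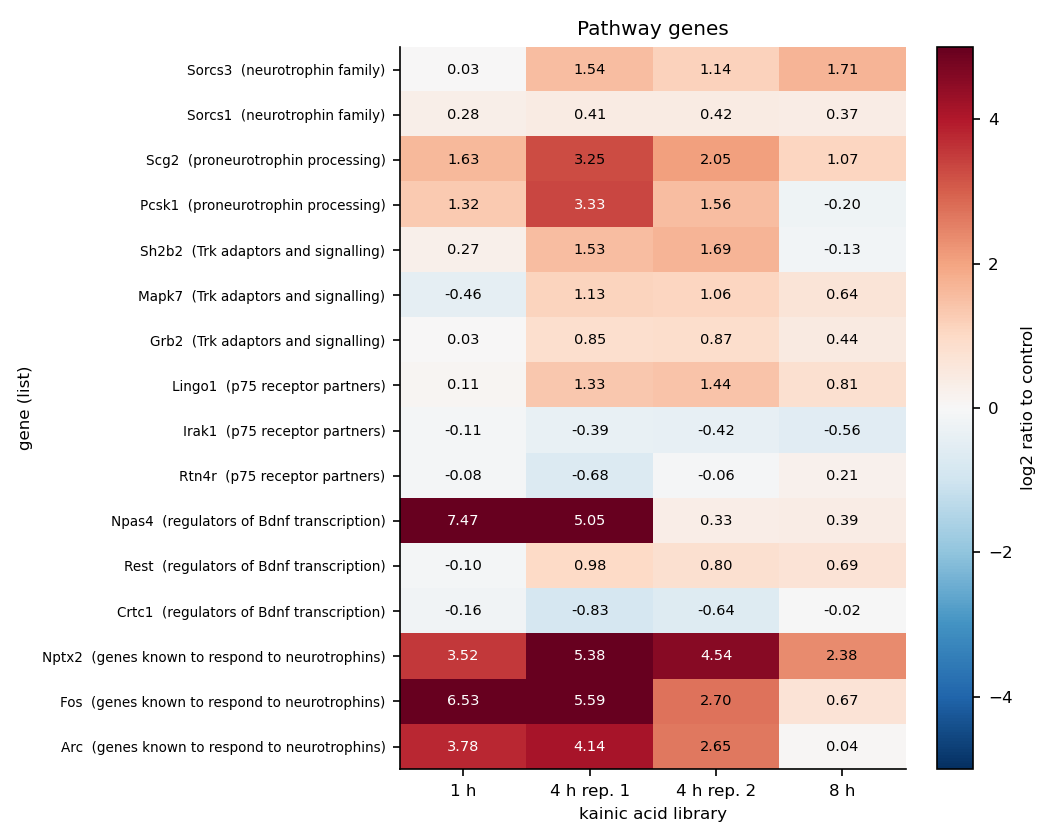
Log2 ratio of normalized CPM to the control for up to 3 genes of each pathway list (rows) in the 1 h, 4 h and 8 h libraries (columns). Numbers give the log2 ratio and colours saturate at 5. Genes in red lie above the control, as Npas4 does with 7.47 after 1 h, and genes in blue below it, as Crtc1 does with -0.83 in 4 h replicate 1.

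For the 4 members whose log2 level spanned 1 or more, the 3 genes with the most similar course over the 5 libraries were found by the root mean square difference of log2 CPM, each gene centred on its mean. Only genes tested that had at least 50 counts in 1 library were searched. For Bdnf these were Gpr3 (0.17), Cdkn1a (0.19) and Csrnp1 (0.21). Gpr3, for example, stood at 3.27 CPM in the control, 12.1 after 1 h, 47.6 and 22.1 after 4 h and 6.33 after 8 h. For Ntf3 they were Gm48408 (0.10), Crocc (0.24) and Nek10 (0.27), and Crocc stood at 60.8 CPM in the control, 64.6 after 1 h, 17.3 and 29.3 after 4 h and 30.3 after 8 h. For Ntrk2 they were Btg3 (0.03), Sc5d (0.06) and Hmgcs1 (0.06), the last of which stood at 257, 323, 613, 487 and 271 CPM. For Ngfr, at its low counts, they were Gm19500 (0.09), C130074G19Rik (0.12) and Gm11992 (0.12). With 5 libraries and many genes searched, likeness of this kind is a description.

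For the makeup of the tissue, 15 lists of cell type markers were read beside the members. Markers of excitatory neurons, dentate granule cells and pyramidal cells of CA1 to CA3 were all above 3 counts in every library, so the defining markers of the labelled tissue were present. Their summed levels lay between 0.774 and 1.07 times the control. Single markers could differ more. None of the 4 excitatory neuron markers was above the control in either 4 h library or after 8 h. Among them Neurod6 had 144 CPM in the control and 60.9 and 67.1 after 4 h. Of the 8 pyramidal cell markers, 3 in replicate 1 and 4 in replicate 2 were above the control after 4 h. Of the 5 dentate granule cell genes, 2 in replicate 1 and 1 in replicate 2 were above the control after 4 h. At least 2-fold below the control in both 4 h libraries were 2 of them, Dsp and C1ql2. Prox1, the 1 gene above the control in both, had 60.0 CPM in the control, 67.2 after 1 h, 172 and 120 after 4 h and 77.1 after 8 h. In the same order, Dsp had 72.2, 66.1, 4.34, 13.6 and 68.5, and Calb1 had 102, 100, 89.2, 72.5 and 60.7. GABAergic interneuron markers (6 genes, led by Gad1) summed to 1.65 and 1.36 times the control after 4 h, and astrocyte markers (7 genes, led by Slc1a2) to 1.26 and 1.16 times. Within the GABAergic list the markers differed. Above the control were 5 of the 6 in replicate 1 and 4 of the 6 in replicate 2 after 4 h. Gad1 had 256 CPM in the control and 515 and 379 in replicates 1 and 2 after 4 h. In the same order, Gad2 had 103, 150 and 155, and Slc32a1 had 31.6, 28.2 and 39.2. Pvalb had 23.0, 24.8 and 22.0, and Vip had 17.2, 21.7 and 17.1. After 4 h 6 of 7 astrocyte markers in replicate 1 and 7 of 7 in replicate 2 were above the control, as Aqp4 with 214 and 177 CPM against 133. Gfap had 221 CPM in the control, 596 and 510 after 4 h and 587 after 8 h, while Gja1 had 195 in the control and 98.6 after 8 h. Oligodendrocyte markers (6 genes, led by Mbp) summed to 1.25 times the control after 1 h, 1.18 and 1.52 times after 4 h and 0.988 times after 8 h.
Libraries stood apart in 2 lists of tissue next to the hippocampus. The choroid plexus markers (5 of 5 detected, led by Ttr) summed to 3995 CPM in the control, 1692 after 1 h, 29.2 and 4267 in replicates 1 and 2 after 4 h and 3091 after 8 h. Ttr itself had 3747, 1573, 16.3, 3971 and 2884 CPM, so replicate 1 after 4 h nearly lacked it. The thalamic neuron markers (4 of 4 detected, led by Rora) summed to 119, 132, 466, 218 and 90.6 CPM in the same order, and all 4 were above the control in both 4 h libraries. No marker of either list was at 0. Bdnf was 7.25 times, Ntrk2 1.73 times and Ntf3 0.253 times the control in 4 h replicate 2, whose choroid plexus sum was 1.07 times and whose thalamic sum was 1.83 times the control. The part of these tissues in the levels of the members was not tested further.
The remaining lists summed to between 0.857 and 1.12 times the control for oligodendrocyte precursors, 0.808 and 1.02 for microglia, 0.831 and 1.13 for endothelial cells, 0.785 and 0.957 for mural cells and fibroblasts, 0.822 and 1.37 for cortical neurons and 0.837 and 1.75 for blood. Of the 3 cholinergic neuron markers only Slc5a7 passed the filter, with at most 1.14 CPM, and Slc18a3 was at 0 after 8 h. Cholinergic neurons, which in the forebrain carry p75, send axons to the hippocampus, but their cell bodies lie outside it.

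**Figure D5:**
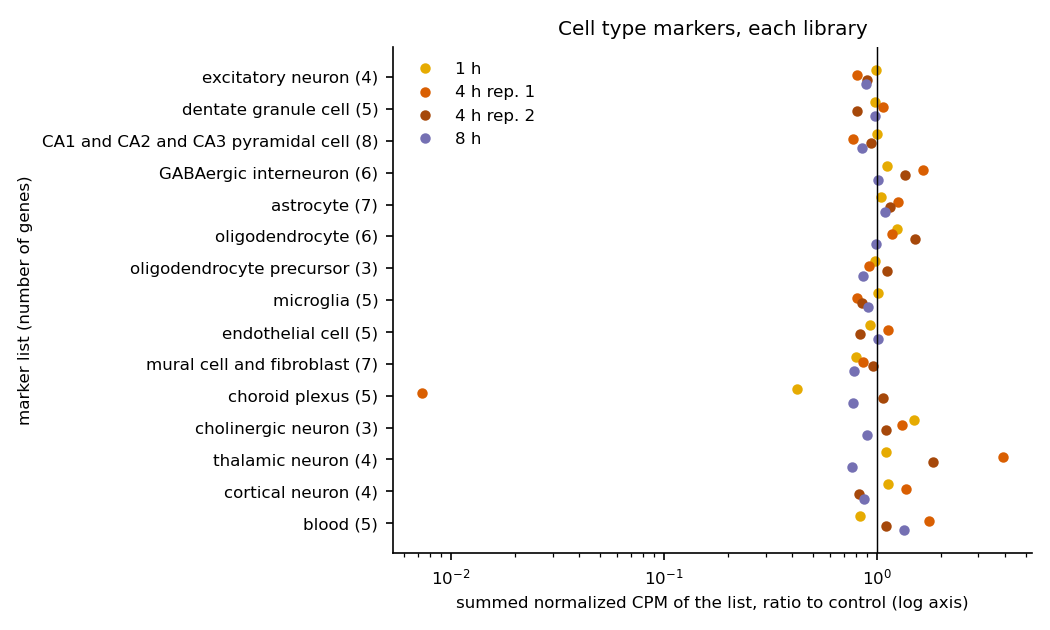
Summed normalized CPM of 15 cell type marker lists as a ratio to the control (log axis), with a point for each of the 1 h, 4 h and 8 h libraries and the number of genes in each list in brackets. Choroid plexus in 4 h replicate 1 lies at 0.00730 and thalamic neurons in the same library at 3.91. All lists but these lie between 0.774 (pyramidal cells) and 1.75 (blood), both in 4 h replicate 1.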

How the data were processed

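Total RNA of mouse hippocampus was sequenced in 5 libraries, 1 of untreated controls and 1, 2 and 1 of mice 1, 4 and 8 h after the onset of kainic acid seizures. The authors prepared stranded total RNA libraries, aligned the paired-end reads with STAR 2.5.1b to GRCm38.p4, as the submitters' processing notes list, and deposited raw read counts for 55385 genes in the layout of HTSeq, without normalization. How strand was treated in counting, and which annotation release served, is not stated. Rows for reads on no gene held 24.7%, 29.0%, 33.1%, 25.3% and 30.9% of the reads in the control, 1 h, 4 h (replicates 1 and 2) and 8 h libraries and were left out. Counts on genes were 19100374, 17744508, 18250114, 19109204 and 16612225.
The analysis used edgeR 4.0.16 under R 4.3.3: filterByExpr, TMM (factors 1.04, 0.992, 0.924, 0.991 and 1.06) and a quasi-likelihood fit of 4 groups whose 1 residual degree of freedom came from the 4 h pair, so that the single libraries were assumed to vary like it. The biological coefficient of variation was 0.238. Log2 fold changes used a prior count of 2, standard errors were the unshrunk coefficient divided by the square root of F, and p-values were adjusted by the Benjamini-Hochberg method over all genes tested. The code of the fit was tested on simulated data. For fold ratios, counts under 3 were set to a floor of 3, equal to between 0.151 and 0.178 CPM. The alternatives run were scaling by library size alone, by median-of-ratios factors or by TMM leaving out the 50 most abundant genes and those of mitochondria and ribosomal RNA, DESeq2 1.42.0, limma-voom (limma 3.58.1), an assumed coefficient of variation of 0.2 or of 0.4, robust empirical Bayes, no filter, at least 10 counts in every library, a smaller prior count and leaving out each 4 h replicate. Intervals were computed with SciPy 1.17.1 and figures drawn with matplotlib 3.10.9.
Gene positions and exon lengths came from GENCODE M21 (GRCm38), in which 55144 of the identifiers were found. Named were all members, genes of the neurotrophin family list, and up to 3 genes of each other list with at least 50 counts in a library and the largest log2 ratio in absolute size of the mean 4 h level to the control. Also named were the 3 genes most like each member whose log2 level (CPM plus 0.5) spanned at least 1, with the same minimum of 50 counts. Of the lists, 3 genes are not reported here by name. The members and the lists were chosen with earlier results of these data known.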

Additional observations from a re-analysis of the deposited data

Results flagged for a closer look

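The members, the genes of the neurotrophin family list and the up to 3 genes picked from each other list were searched for opposite differences, and cell type markers and further list genes were not. In 4 of the genes searched, every library of 1 time point lay above the control and every library of another below it, with counting intervals that left out 1. The difference between the time points was not tested in any of them, and each ratio is measured against the same single control library. Sort1 had a ratio to the control of 1.04 after 1 h, 0.772 and 0.862 in replicates 1 and 2 after 4 h and 0.826 after 8 h; with library size alone the ratio after 1 h was 0.990. Maged1 had ratios of 1.08 after 1 h, 1.06 and 1.11 after 4 h and 0.896 after 8 h, and with library size alone that of 4 h replicate 1 was 0.940. Pcsk1, a prohormone convertase, had ratios of 2.49 (2.31 to 2.68) after 1 h, 10.1 (9.43 to 10.7) and 2.95 (2.74 to 3.16) after 4 h and 0.872 (0.795 to 0.957) after 8 h. Mapk7, the kinase ERK5, had ratios of 0.726 (0.601 to 0.876) after 1 h, 2.18 (1.89 to 2.53) and 2.08 (1.81 to 2.41) after 4 h and 1.56 (1.34 to 1.82) after 8 h.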

How the results depend on the processing

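The direction of Bdnf, Ntf3, Ntrk2 and Ntrk3 after 4 h was the same in all alternatives, and the number of members at least 2-fold from the control (1 after 1 h, 2 in both 4 h libraries and 2 after 8 h) was the same under the 3 other scalings. After 4 h it was between 2 and 3 when either replicate was left out, counted in the single library that remained. That rule is looser than the rule for both libraries. No test was possible then because no residual degrees of freedom remained. Calls depended on the setting. After 1, 4 and 8 h, library size alone called 57, 237 and 22 of 19768 genes, with 1 member after 4 h, and it shifted the log2 ratios of 4 h replicate 1 by -0.18 and those of the other libraries by less than 0.1. With it 8 ratios of named genes in single libraries crossed 1, all between 0.987 and 1.06 under TMM. DESeq2 called 56 of 12486, 238 of 14019 and 33 of 14019 genes, with 2 members after 4 h. An assumed coefficient of variation of 0.2 called 238, 916 and 184 of 19768 genes, with 1, 2 and 1 members. One of 0.4 called 40, 81 and 12 of the same 19768, with 1 member after 4 h. Without a filter 285, 1300 and 279 of 32732 genes were called, with 1, 3 and 1 members, but the F statistic was then below 0 for 3330, 1581 and 2932 genes. In place of 1 gene after 4 h, 0 were called with median-of-ratios factors, with limma-voom and with at least 10 counts in every library, and in place of 0 after 1 h, 1 was called with robust empirical Bayes and with at least 10 counts in every library. The causes were not tested. No paired analysis was possible because only the 4 h group has replicates. With 1 control library, differences from the control have no replicate check on that side, and at the low counts of Ntf5 even a ratio of 2.89 (4 h replicate 2) had a counting interval that included 1 (0.858 to 12.5).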
